A study of Rattus norvegicus with 90 samples.

Results

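Among 40071 transcripts quantified in primary rat cells, 199 were low in hepatocytes cultured with vehicle for 24 h and higher in the hepatocyte groups nearest to it. They were chosen by level. For each transcript, the mean level in CPM (counts scaled to the transcript total of each library) of the vehicle group at 24 h was compared, as a difference of log2(mean CPM + 1), with vehicle at 9 h, the low dose at 24 h and the high dose at 24 h, and the largest of these 3 differences, called the rule value here, ranked the transcripts. The lowest 200 with a rule value below -1 were taken and ENSRNOT00000016152, which ranked 1, was left out. In all, 574 transcripts lay below -1, so the list is the far end of a longer series. The differences with these 3 groups selected the transcripts and are therefore given as a description, with no test.

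The series holds 90 poly-A-enriched RNA libraries, 5 for each of 18 conditions, from cells of Sprague-Dawley rats. Cryopreserved primary hepatocytes were exposed to thioacetamide-S-oxide at 0.025 mM (low dose) or 0.125 mM (high dose) or to their maintenance medium (vehicle), for 9 or 24 h. Renal proximal tubular epithelial cells received 0.125 or 0.5 mM and cardiomyocytes 0.5 or 1.5 mM, with the same times. The labels name no separate culture or animal for a library, so p-values measure the spread between libraries, which may be technical.

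Thioacetamide is a liver toxicant that must be oxidised before it acts, first to the S-oxide and then to a reactive S,S-dioxide that binds proteins. Here the S-oxide itself was given to the cells. Hepatocytes express many transcripts that other cells lack, among them those for plasma proteins and for enzymes of drug and lipid metabolism, and in culture these cells are known to lose part of that programme over hours to days. A vehicle group at each time is what separates such drift from an effect of the compound, so a transcript that is low in one vehicle group alone enters every comparison made with that group.

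Transcripts are named by their Ensembl identifiers. None of the 199 could be paired with a gene symbol or a sequence in the reference tables used here, so the roles of the encoded proteins, the markers of each cell type and the sequences are not given, and the labelled cell types were not checked against markers. The vehicle group at 24 h also stands apart in its labels. Its libraries are numbered MS-181 to MS-185, after the cardiomyocyte libraries, whereas the other hepatocyte libraries are numbered from MS-91 to MS-120, with MS-106 to MS-110 not used here. What the numbers record is not stated in the sources used here, and the group and its block of numbers cannot be told apart. One of its 5 libraries, MS-183, was far shallower, with a transcript total of 249303 counts where its group otherwise had 18834527 to 28234877, and was left out of every value below unless it is named. The other 89 libraries held between 10519414 and 55822031 counts on transcripts.

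Together the 199 transcripts made up 5601 ± 187.9 CPM (SD, n = 4) of the hepatocyte libraries in vehicle at 24 h. Summed levels were 37465 ± 2101 CPM (n = 5) in vehicle at 9 h, 29841 ± 1591 CPM (n = 5) at the low dose at 24 h and 28643 ± 1552 CPM (n = 5) at the high dose at 24 h. The 4 vehicle libraries at 24 h lay between 5323 and 5732 CPM, and the lowest of the 15 libraries of the other 3 groups was at 26596 CPM, so the ranges did not come near each other. The exposed hepatocytes at 9 h, which the rule did not use, had 40562 ± 604.5 CPM (n = 5) at the low dose and 43406 ± 1570 CPM (n = 5) at the high dose. Library MS-183, with its 249303 counts, had a member sum of 4252 CPM, also low. In it, 73 members had at least 3 counts and 55 of these lay above the highest of the other 4 libraries. The members were chosen for low levels in these 4, which set much of this count. Its share over all transcripts was not computed. In MS-183, 3 counts are 12.0 CPM. Some members were far above that, such as ENSRNOT00000006408 at 345 CPM (86.0 counts, against at most 3.91 CPM in the other 4) and ENSRNOT00000005674 at 176.5 CPM (44.0 counts, against at most 0.372 CPM). With MS-183 kept, the rule value of 15 of the 199 members was above 0. Only 8.33% of the 2993135 counts of MS-183 fell on transcripts, against 84.1% to 93.5% in the other 4 libraries of its group. What sets this library apart beside this share and its depth was not tested. In such bulk libraries, fewer cells that contain a transcript and less of it in each cell cannot be told apart.

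**Figure D1:**
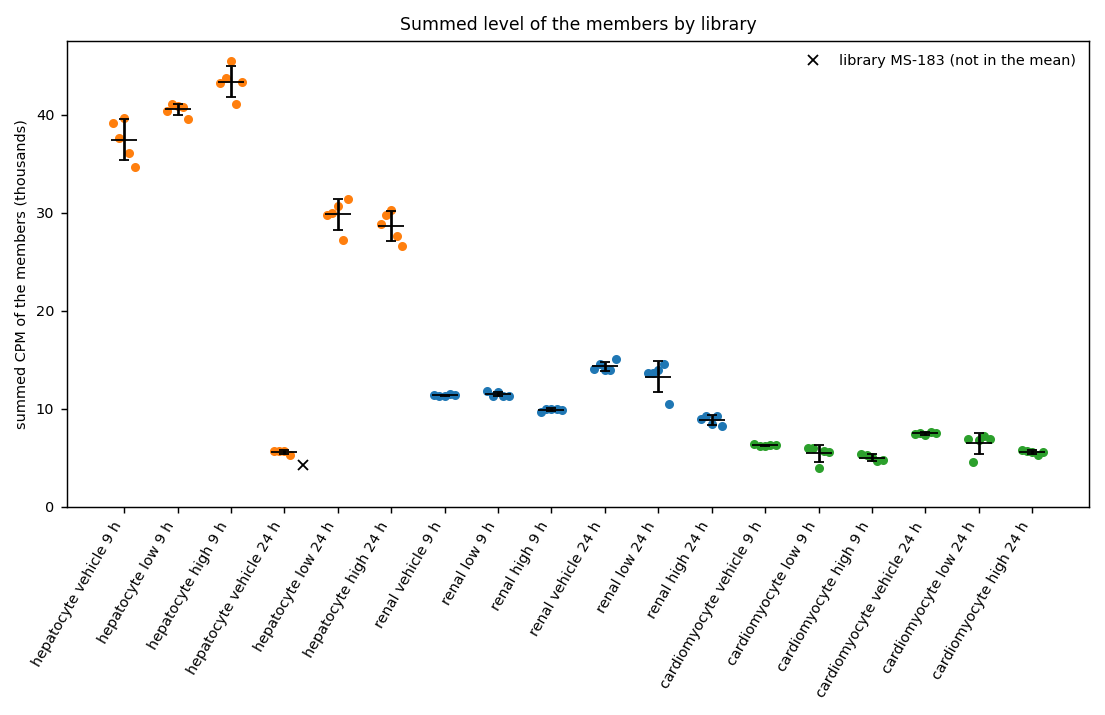
Summed CPM of the 199 transcripts (vertical axis, in units of 1000) in each library of the 18 conditions (horizontal axis). Points are libraries, black marks and bars are the mean and SD, and the cross is library MS-183; the hepatocyte libraries lie at 26596 CPM or more except those of vehicle at 24 h, of which the 4 used lie between 5323 and 5732 CPM.

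The rule values ran from -5.50 to -1.58 on the log2 scale, with a median of -2.09. A rule value under -2 was found for 109 members, under -3 for 33, under -4 for 10 and under -5 for 2. The median difference of vehicle at 24 h was -2.61 against vehicle at 9 h, -2.54 against the low dose at 24 h and -2.26 against the high dose at 24 h. Over all transcripts with a mean of at least 1 CPM in one of these groups the medians were -0.03, -0.06 and -0.03. The high dose at 24 h was the nearest of the 3 groups for 90 members, the low dose at 24 h for 65 and vehicle at 9 h for 44.

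The median member had a mean level of 43.8 CPM in vehicle at 9 h and 4.31 CPM in vehicle at 24 h. At 24 h it had 38.8 CPM at the low dose and 32.3 CPM at the high dose. In vehicle at 24 h, 47 members had a mean under 1 CPM and 74 a mean of 10 CPM or more, so the list joins transcripts that were nearly absent from that group and abundant ones that were reduced. No member was at 0 in all 4 libraries, but 7 had fewer than 3 counts over the 4 libraries and 18 fewer than 10. A floor of 3 counts over these libraries is 0.0340 CPM, and it covers counting error only.

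The 4 vehicle libraries at 24 h lay below all 15 libraries of the 3 groups for 193 members, where the background was 11.4% of the 19268 transcripts with a mean of at least 1 CPM in a condition. This count was fixed in large part by the rule. The median coefficient of variation over members was 14.7% between the vehicle libraries at 24 h, against 9.65% in vehicle at 9 h, 10.5% at the low dose at 24 h and 13.6% at the high dose at 24 h. A coefficient above 50% in vehicle at 24 h was found for 40 members, and 32 of these had a mean under 1 CPM there.

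**Figure D2:**
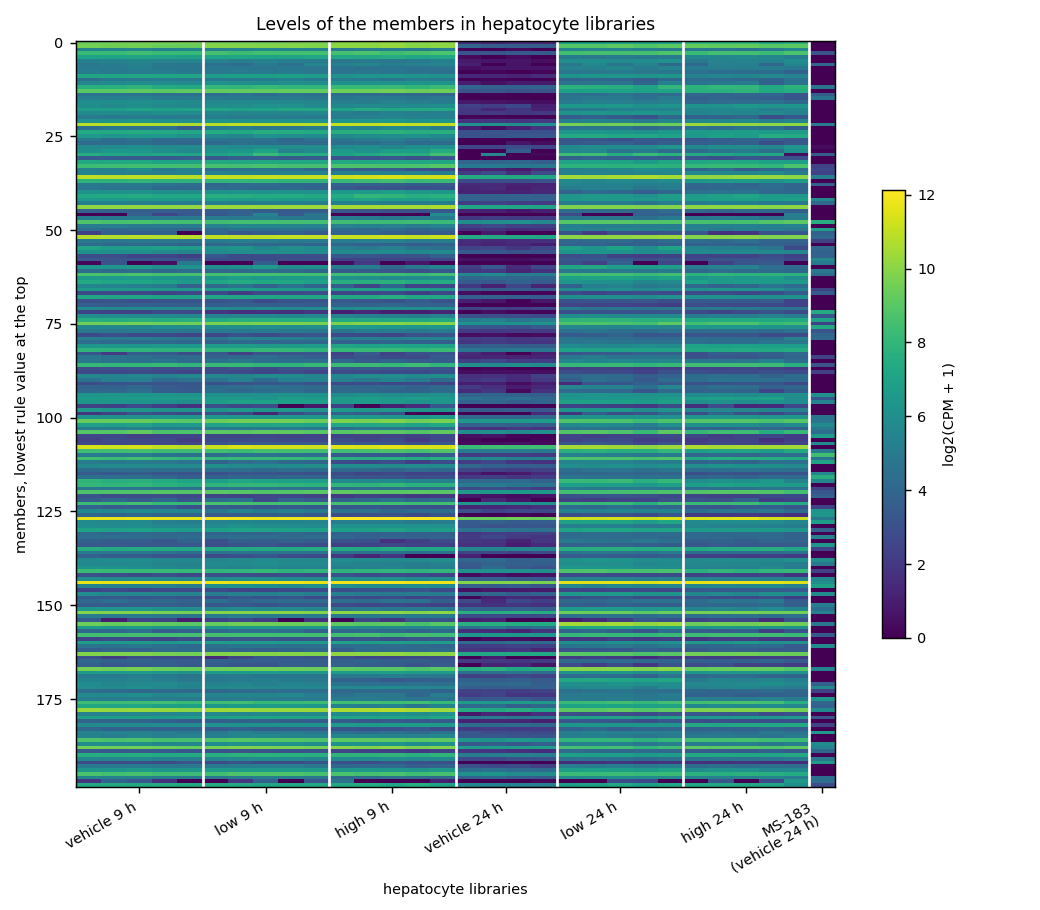
Level of each of the 199 transcripts (rows, ordered by rule value) in the hepatocyte libraries (columns, by group, with MS-183 at the right edge), coloured by log2(CPM + 1). The 4 columns of vehicle at 24 h are darker than their neighbours over nearly the whole list, with median levels of 4.31 CPM there and 43.8 CPM in vehicle at 9 h.

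ENSRNOT00000015801, 1726 bases long, had the lowest rule value, -5.50. Its levels in vehicle at 24 h were 1.94, 1.41, 1.88 and 1.55 CPM. In vehicle at 9 h they were 669, 690, 726, 704 and 739 CPM. It was thus 417-fold higher at 9 h than at 24 h in vehicle, with no overlap. At 24 h its level was 120.8 ± 6.28 CPM (n = 5) at the low dose and 216 ± 31.6 CPM (n = 5) at the high dose, 71.4-fold and 127.8-fold above vehicle. Outside hepatocytes it was close to 0, with 0.401 CPM in renal vehicle at 9 h and at most 0.00504 CPM in each other condition of the other cell types.

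ENSRNOT00000019346, at -5.29, was by contrast found in every condition. Vehicle at 24 h had 14.5, 10.9, 10.8 and 10.96 CPM. Vehicle at 9 h had 766, 720, 769, 663 and 624 CPM. At 24 h the low dose had 486, 476, 547, 455 and 531 CPM and the high dose 612, 578, 602, 500 and 545 CPM. All 15 libraries were thus more than 30 times above any of the 4, and the level in vehicle at 24 h also fell below the lowest condition outside hepatocytes, renal cells at the high dose for 24 h, with 21.6 ± 1.14 CPM (n = 5).

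ENSRNOT00000018776 had 8.55, 8.18, 9.74 and 9.67 CPM in vehicle at 24 h. It had 293, 294, 335, 293 and 281 CPM in vehicle at 9 h, and a mean of 384 CPM at the low dose and 349 CPM at the high dose at 24 h. In exposed cells at 9 h its means were 351 CPM at the low dose and 377 CPM at the high dose, and neither dose was called between 9 and 24 h. ENSRNOT00000006273 behaved like ENSRNOT00000015801, with 0.133 CPM in vehicle at 24 h against 127.1 CPM at 9 h, 29.0 CPM at the low dose and 44.9 CPM at the high dose at 24 h, and means of at most 0.0784 CPM in the other cell types.

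ENSRNOT00000076920 was nearly absent from vehicle at 24 h only. Its levels there were 0.0994, 0, 0.248 and 0 CPM, from 9 counts in all. In vehicle at 9 h it had 43.1, 45.0, 44.9, 38.4 and 42.7 CPM, and the means of the other 17 conditions, of all 3 cell types, ran from 10.4 to 42.8 CPM. No other condition came near the level of vehicle at 24 h.

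The other 3 of the 8 lowest were ENSRNOT00000014465, ENSRNOT00000041590 and ENSRNOT00000071525. Their mean levels in vehicle at 24 h were 0.637, 0.412 and 0.552 CPM, and in vehicle at 9 h 41.2, 30.4 and 30.3 CPM. ENSRNOT00000041590 was the least even, with 1.10, 0, 0.545 and 0 CPM in vehicle at 24 h and between 17.2 and 50.2 CPM at the low dose at 24 h. Its counts were not whole, since reads shared with similar transcripts are divided among them by the quantification.

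**Figure D3:**
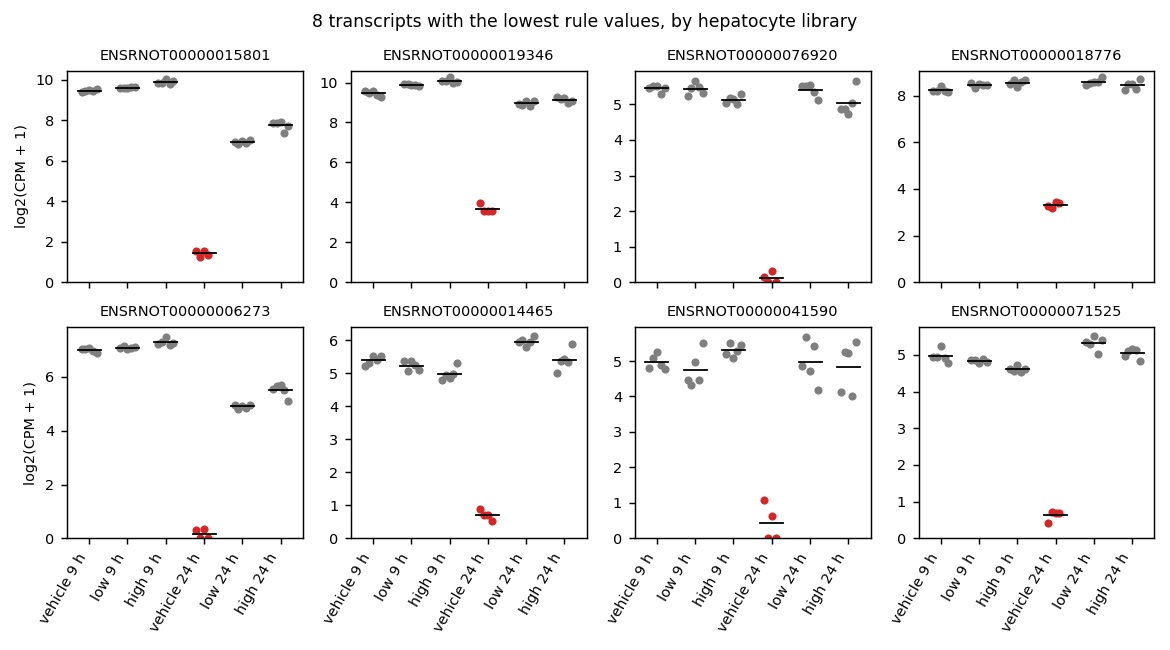
Levels of the 8 transcripts with the lowest rule values, as log2(CPM + 1) on the vertical axis, in the 6 hepatocyte groups. Points are libraries without MS-183, lines are the log2(CPM + 1) means, and red marks vehicle at 24 h, where all 8 lie below every other group; ENSRNOT00000015801, ENSRNOT00000019346 and ENSRNOT00000006273 also lie lower in exposed cells at 24 h than at 9 h.

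The most abundant members were still well detected in vehicle at 24 h. ENSRNOT00000024710 had 949, 917, 940 and 825 CPM in vehicle at 24 h. It had 3328, 3210, 3350, 3141 and 2973 CPM in vehicle at 9 h, 3.53-fold more. Its means at 24 h were 3122 CPM at the low dose and 3184 CPM at the high dose, close to each other and to vehicle at 9 h. ENSRNOT00000020197 went from 3387 CPM in vehicle at 9 h to 670 CPM at 24 h, ENSRNOT00000073042 from 2336 to 326 CPM, ENSRNOT00000014073 from 1948 to 161.2 CPM, ENSRNOT00000064091 from 1806 to 160 CPM and ENSRNOT00000018447 from 1752 to 70.1 CPM. These are shares of the library's transcript counts, not levels per length.

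The limit of the list cut through a continuous range. The members just inside were ENSRNOT00000075494 and ENSRNOT00000091906, both with a rule value of -1.58, and the transcripts just outside were ENSRNOT00000051751, at -1.58, and ENSRNOT00000038547, at -1.57. ENSRNOT00000075494 shows how a member can rest on uneven values: it had 2.67, 14.05, 8.65, 2.11 and 0.00889 CPM in vehicle at 9 h, and 1 library of the high dose at 24 h was at 89.4 CPM while 2 were under 0.001 CPM. ENSRNOT00000051751, not a member, had 66.5 CPM in vehicle at 24 h, 288 CPM at 9 h and 201 CPM at the low dose at 24 h, all with an SD of at most 20.2 CPM.

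Length and whole-number counts were compared with those of transcripts above a floor. The members' lengths ran from 68 to 14178 bases with a median of 1973, against 2202 for the 12598 transcripts that reached the lowest member mean of 2.19 CPM in the 3 comparison groups. Whole-number counts, which mean that no read was divided among similar transcripts, were found for 65 members, 32.7%, against 40.7% of those transcripts (tolerance 0.01 counts).

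The members were also compared by where else they were found. In vehicle at 9 h, 99 members (49.7%) reached 1 CPM in both renal cells and cardiomyocytes, 13 in renal cells only, 19 in cardiomyocytes only and 68 (34.2%) in neither. Among the 12598 transcripts above the same floor, which were not matched to the members in level, 91.8% reached 1 CPM in both and 4.14% in neither. At 24 h the vehicle groups gave 96 members in both and 73 in neither. In renal vehicle, 11 members at 1 CPM or more at 9 h were under it at 24 h. Members under 1 count numbered 26 to 36 per renal vehicle library at 9 h and 60 to 70 at 24 h. The classes thus depend on the time used. The 68 that are called hepatocyte-confined here summed to 8735 CPM in hepatocyte vehicle at 9 h, 968 CPM in vehicle at 24 h, 5554 CPM at the low dose and 5788 CPM at the high dose at 24 h, and to between 2.86 and 43.4 CPM in the 12 conditions of the other cells. The 99 shared members summed to 21646 CPM in vehicle at 9 h, 3562 CPM in vehicle at 24 h, 18004 CPM at the low dose and 17336 CPM at the high dose at 24 h. Both classes were chosen by the rule, which fixed that vehicle at 24 h was the lowest of these groups.

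The reverse pattern, a transcript much more abundant in the other cells, was rare. Only 5 members (2.51%) were over 5 times higher in the vehicle groups of both other cell types, against 2.33% of the 12598 transcripts above the floor. The 924 transcripts outside the list that were abundant in both other cell types and low in hepatocytes summed to 6738 to 7437 CPM in vehicle at 24 h, 4644 to 5060 CPM in vehicle at 9 h, 7073 to 8167 CPM at the low dose at 24 h and 7146 to 8039 CPM at the high dose at 24 h. At 24 h the ranges of vehicle and exposed cells overlapped. Their part in the members' levels was not tested.

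Exposed hepatocytes at 9 h were not used by the rule. The 4 vehicle libraries at 24 h lay below all 10 of them for 188 of the 199 members, with a background of 15.8%. The median difference of vehicle at 24 h on the log2(mean CPM + 1) scale was -2.61 against the low dose at 9 h and -2.51 against the high dose at 9 h, where all transcripts of at least 1 CPM had medians of 0 and 0.03. All 199 members lay more than 1 log2 unit below the low dose at 9 h and 187 below the high dose at 9 h, as did 6.27% and 5.54% of all transcripts of at least 1 CPM. Vehicle at 24 h entered the rule, so these values extend the description and are not an independent test.

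In the other cell types the background was close to the members' count. The 4 libraries lay below all 30 renal libraries for 54 members (27.1%, background 23.2%) and below all 30 cardiomyocyte libraries for 49 (24.6%, background 19.6%). Below all 85 other libraries of the series lay 37 members (18.6%, background 1.6%), but 15 of the 85 were libraries of the rule groups, so that the rule set much of this contrast. Vehicle at 24 h had the lowest mean of the 18 conditions for 55 members (27.6%), against 9.97% of the 12598 transcripts above the floor, a difference that the rule helped to set, since 3 of the 17 other conditions were used in it.

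For 42 members every one of the 17 other means was more than 2 times that of vehicle at 24 h, and for 9 members more than 10 times, against 107 and 10 of the 12598 transcripts above the floor. The rule fixed 3 of these 17 conditions. Of these, ENSRNOT00000076920 is described above, and the others were chosen after their values were seen. ENSRNOT00000076871 had 0.0591, 0.133, 0 and 0.109 CPM in vehicle at 24 h against other means from 5.17 to 31.2 CPM. ENSRNOT00000057623 had 0.103, 0.137, 0.0354 and 0.0720 CPM against 3.48 to 22.7 CPM. ENSRNOT00000084181, only 68 bases long, had 1 count in the 4 libraries and means from 2.86 to 12.1 CPM elsewhere. In all 4 the means of the other 5 hepatocyte groups lay above those of both other cell types.

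A second set of these, also chosen after their values were seen, was low in all hepatocytes and higher in the other cells. ENSRNOT00000036978 had 0.447, 0.425, 0.354 and 0.524 CPM in vehicle at 24 h. It had 9.60, 8.31, 8.54, 8.46 and 7.75 CPM in vehicle at 9 h, and 60.7 ± 0.963 CPM (n = 5) in renal vehicle at 9 h. ENSRNOT00000076430 had 0.363 CPM in vehicle at 24 h, 5.57 CPM in vehicle at 9 h, 65.2 CPM in renal vehicle at 9 h and 69.0 CPM in cardiomyocyte vehicle at 9 h. ENSRNOT00000039538 and ENSRNOT00000044222 had 0.384 and 0.634 CPM in vehicle at 24 h, and between 5.28 and 8.52 CPM in the other 5 hepatocyte groups. For all 4 the renal and cardiomyocyte libraries lay above those of hepatocytes on average. Their low level in vehicle at 24 h holds for the 4 libraries used: in MS-183 ENSRNOT00000036978 was at 52.1 CPM and ENSRNOT00000076430 at 14.5 CPM, and with that library kept the rule value of ENSRNOT00000036978 was 0.61.

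Transcripts that were highest among members in the other cells were less extreme. ENSRNOT00000024030 was at 13.3 ± 1.77 CPM (n = 4) in hepatocyte vehicle at 24 h and 47.8 ± 5.58 CPM (n = 5) at 9 h, against 3732 CPM in renal vehicle at 9 h. ENSRNOT00000050180 was at 14.7 and 54.4 CPM in these hepatocyte groups and at 676 CPM in renal vehicle at 9 h. ENSRNOT00000020265 and ENSRNOT00000075610 both had 13.2 CPM in hepatocyte vehicle at 24 h, 95.1 and 79.8 CPM in vehicle at 9 h, and 551 and 490 CPM in cardiomyocyte vehicle at 9 h. In MS-183 these 4 were at 56.2, 64.2, 52.1 and 72.2 CPM, above the other libraries of vehicle at 24 h.

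The members' response to the compound at 9 h was measured with vehicle at 9 h, whose libraries entered the rule through another contrast. The rule asked for a high level there, which can favour falls on exposure. A transcript is called when edgeR's quasi-likelihood test gives a Benjamini-Hochberg adjusted p of at most 0.05 and the change is at least 1.51-fold, the threshold of 0.41 on the natural-log scale. With the low dose at 9 h, 198 members passed the filter on low counts and 11 were called (5.56%, background 2.34%), of which 5 rose (2.53%, background 1.12%) and 6 fell (3.03%, background 1.22%). ENSRNOT00000010923 rose with no overlap, from 5.33, 5.04, 6.04, 5.07 and 4.91 CPM in vehicle to 7.54, 9.89, 10.2, 9.39 and 9.32 CPM (log2 fold change 0.83, SE 0.10, edgeR adjusted p = 0.00042). ENSRNOT00000075878 fell from 41.3 ± 10.2 to 20.3 ± 3.80 CPM (n = 5 each) at the low dose and to 8.88 ± 2.46 CPM at the high dose.

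With the high dose at 9 h, 50 of 198 members were called (25.3%, background 18.4%). Of these, 39 fell (19.7%, background 9.95%) and 11 rose (5.56%, background 8.48%). The median log2 fold change of the members was 0.14, while that of all transcripts tested was 0.00. By where else the transcripts were found, 29 of the 99 shared members fell and 5 rose, and 2 of 67 hepatocyte-confined members fell and 3 rose. Among all tested transcripts found in both other cell types 9.3% fell and 7.43% rose, and among all confined ones 232 of 2106 fell and 253 rose, so that the confined members, at 2.99% and 4.48%, lay below their class in both directions. The difference between classes was not tested. The excess of falls rested on the fold threshold: by adjusted p alone, 77 members were higher and 65 lower (71.7%, where 49.7% of all transcripts passed).

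ENSRNOT00000080185 rose from 20.2 ± 5.84 to 45.4 ± 7.81 CPM (n = 5 each) at the high dose at 9 h (log2 fold change 1.23, SE 0.20, edgeR adjusted p = 0.0003). ENSRNOT00000064513 fell from 12.5, 10.8, 10.6, 7.49 and 7.96 CPM to 3.14, 1.49, 2.63, 0.000563 and 0.000778 CPM. Its fall was called by edgeR (adjusted p = 0.011) and not by DESeq2, and 2 of the 5 exposed libraries were near 0.

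The high and low doses at 9 h could be compared without any library that the rule used. Of 198 members, 26 were called (13.1%, background 7.55%), 25 lower at the high dose (12.6%, background 3.82%) and 1 higher (0.505%, background 3.73%). ENSRNOT00000032280 had 13.4, 19.2, 22.7, 16.8 and 14.3 CPM at the low dose and 5.64, 5.18, 6.24, 3.83 and 5.95 CPM at the high dose. The groups did not overlap (log2 fold change -1.61, SE 0.17, edgeR adjusted p = 3.7e-05). In vehicle the same transcript had 28.4 ± 3.32 CPM (n = 5) at 9 h and 3.40 ± 1.12 CPM (n = 4) at 24 h, so exposure for 9 h and vehicle for 24 h lay on the same side. The level at the high dose at 9 h stayed above that of vehicle at 24 h on average, and 1 of the 4 vehicle libraries, at 4.94 CPM, lay above the lowest exposed one. By adjusted p alone the doses split the members into 53 higher and 58 lower (56.1%, where 34.2% of all transcripts passed). In MS-183 this transcript was at 136.4 CPM, and with that library kept its rule value was 0.83, so its place on the list rests on leaving MS-183 out.

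The doses also differed at 24 h, where both groups entered the rule through their contrasts with vehicle. The calls and shares here are therefore not independent of the choice of members and are given as a description. Of 198 members, 61 were called (30.8%, background 14.9%), with 49 lower at the high dose (24.7%, background 8.34%) and 12 higher (6.06%, background 6.58%). By class, 30 of 99 shared members fell and 5 rose, against 7 and 6 of 67 hepatocyte-confined ones. Among all shared transcripts 6.62% fell and 5.99% rose, and among all confined ones 14.4% fell and 8.79% rose, so that the falls of the confined members, at 10.4%, were not above those of their class. The members that fell were partly those of 9 h. Of the 39 that were lower at the high dose than in vehicle at 9 h, 29 were lower at the high than at the low dose at 24 h, which is 74.4% of the first and 59.2% of the second list, and over all transcripts tested the shares were 41.7% and 50.3%.

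ENSRNOT00000061687 had 139.4, 160.04, 110.4, 100.9 and 112.5 CPM at the low dose at 24 h and 33.8, 40.8, 41.2, 20.4 and 18.1 CPM at the high dose. It was thus lower in all libraries of the high dose than in any of the low dose (log2 fold change -1.99, SE 0.24, edgeR adjusted p = 7.6e-05). ENSRNOT00000073099 went the other way, with 56.4 ± 5.25 CPM at the low dose and 115.6 ± 11.5 CPM at the high dose (n = 5 each). In vehicle at 24 h they had 4.94 ± 2.85 and 11.1 ± 0.495 CPM (n = 4 each), below both doses.

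Time in exposed cells gave the largest shares called in hepatocytes. At the low dose, 95 of 199 members were called between 9 and 24 h (47.7%, background 15.2%), with 57 lower at 24 h (28.6%, background 6.2%) and 38 higher (19.1%, background 8.96%). At the high dose, 51.0% of 198 were called ( background 15.7%), with 76 lower at 24 h (38.4%, background 7.11%) and 25 higher (12.6%, background 8.6%). The rule asked for a high level in both doses at 24 h, so the level at 24 h was part of the choice. These 2 comparisons share no library. At both doses 53 members were lower (26.8%, against 3.72% of 16234 transcripts tested in both), 22 were higher (11.1%, against 4.57%), while 77 were called at neither (38.9%, against 77.8%).

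Of the 53 members lower at both doses, 32 were hepatocyte-confined. Of the 67 such members tested at both doses these were 47.8%, and 4 were higher. Of the 99 shared members, 13 were lower and 13 higher. Among all hepatocyte-confined transcripts tested, 13.8% were lower at both doses and 4.2% higher, and among all shared ones 1.87% were lower and 4.41% higher. The median log2 fold change with time of the confined members was -0.72 at either dose, against -0.04 at the low and -0.14 at the high dose for all transcripts of that class.

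ENSRNOT00000041367, a confined member, had one of the largest falls. At the low dose it had 51.7, 47.1, 45.1, 47.0 and 48.7 CPM at 9 h and 6.40, 6.54, 6.02, 5.61 and 7.62 CPM at 24 h. At the high dose it had 55.5, 58.0, 66.2, 60.97 and 68.3 CPM at 9 h and 8.84, 8.20, 9.80, 5.37 and 7.40 CPM at 24 h. The time points did not overlap at either dose (log2 fold changes -2.92, SE 0.07, and -3.05, SE 0.15, edgeR adjusted p = 2e-10 and 1.8e-07). Vehicle went from 43.8 ± 4.11 CPM (n = 5) at 9 h to 1.36 ± 0.585 CPM (n = 4) at 24 h, further than the exposed groups. ENSRNOT00000015801, shown above, had log2 fold changes of -2.73 at the low and -2.22 at the high dose, and ENSRNOT00000006273 of -2.25 and -1.88, where vehicle lost more than both.

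Other members rose with time in exposed cells. ENSRNOT00000032316 had 28.9, 31.3, 37.1, 30.9 and 27.0 CPM at the low dose at 9 h and 155.4, 157.1, 141.9, 124.97 and 155.8 CPM at 24 h (log2 fold change 2.21, SE 0.09, edgeR adjusted p = 1.2e-08). At the high dose it rose from 11.9 ± 1.68 to 38.4 ± 6.52 CPM (n = 5 each), while vehicle had 38.1 CPM at 9 h and 11.3 CPM at 24 h. ENSRNOT00000005674 rose from 1.18 ± 0.260 to 5.97 ± 1.23 CPM (n = 5 each) at the high dose and was at 0.155 CPM in vehicle at 24 h, without MS-183, where it was at 176.5 CPM. For these transcripts, exposed cells and vehicle stood in opposite order at the 2 times.

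**Figure D4:**
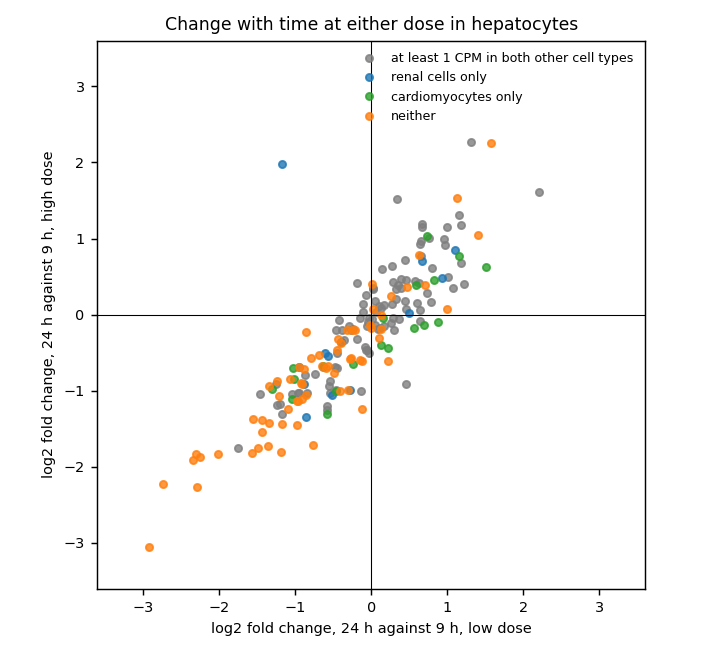
Log2 fold change from 9 to 24 h of each member in hepatocytes at the low dose (horizontal axis) and the high dose (vertical axis), for the 198 members tested at both, coloured by where else the transcript reached 1 CPM. Members found in neither other cell type (orange) lie mostly at lower left, where 32 of 67 were called lower at both doses.

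In the other cell types the rule played no part, but only members detected there could be tested. In renal vehicle, 24 members were called between 9 and 24 h (20.5% of those tested, background 9.1%), 15 lower (12.8%, background 4.55%) and 9 higher (7.69%, background 4.55%). Among the 15, 9 were transcripts at 500 CPM or more in hepatocyte vehicle at 9 h and 10 were under 10 CPM in renal vehicle at 9 h. Of all members tested there, 13 (11.1%) and 46 (39.3%) met these limits. ENSRNOT00000024710 had 5.97, 6.16, 3.65, 14.7 and 3.37 CPM in renal vehicle at 9 h and 0.788, 0.746, 0.670, 0.747 and 0.886 CPM at 24 h. ENSRNOT00000023984 had 1.14, 0.839, 0.904, 3.17 and 0.569 CPM at 9 h and was listed at 0 in all 5 libraries at 24 h. It passed the filter on low counts through the 9 h group alone, so it could only be called lower. The highest of the 5 libraries at 9 h was the same one, MS-124, for 12 of the 15, and its part in the result was not tested beyond leaving it out, which gave 23 called members, while leaving out MS-121 gave 19. ENSRNOT00000024775 rose from 0.509 ± 0.0801 to 1.08 ± 0.166 CPM (n = 5 each). By adjusted p alone, 31 members were higher and 32 lower in this comparison (53.8%, where 33.1% of all transcripts passed). Without the filter on low counts, 6 were higher and 33 lower, 20.1% of more members tested, where 1647 of all transcripts were called.

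At the high dose for 24 h, many of the members found in renal cells were lower than in vehicle. Of those tested, 57 were called (51.4%, background 26.9%), 48 lower (43.2%, background 14.9%) and 9 higher (8.11%, background 12.0%), with a median log2 fold change of -0.46 against 0.02 for all transcripts tested. ENSRNOT00000018447, one of the most abundant in hepatocytes, had 84.8, 73.8, 75.2, 78.4 and 77.9 CPM in renal vehicle and 14.9, 12.7, 12.1, 13.9 and 10.5 CPM at the high dose, with no overlap (log2 fold change -2.66, SE 0.10, edgeR adjusted p = 4.6e-09). ENSRNOT00000072698 rose from 11.8 ± 0.490 to 47.6 ± 2.15 CPM (n = 5 each), by 1.96 on the log2 scale. ENSRNOT00000024030, the most abundant member in renal cells, fell from 6237 to 3340 CPM.

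In cardiomyocyte vehicle, 19 of 120 members were called between 9 and 24 h (15.8%, background 7.7%), 17 of them higher (14.2%, background 5.02%) and 2 lower (1.67%, background 2.68%). ENSRNOT00000018447 had 58.4, 57.7, 59.5, 41.9 and 63.8 CPM at 9 h and 549, 537, 536, 520 and 530 CPM at 24 h. It was thus higher in all libraries at 24 h than in any at 9 h (log2 fold change 3.30, SE 0.10, edgeR adjusted p = 4.7e-09). In hepatocyte vehicle it went from 1752 to 70.1 CPM over the same times. ENSRNOT00000073042 was lower at 24 h, with 2.64 ± 0.809 CPM against 6.59 ± 0.533 CPM (n = 5 each).

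At the high dose for 24 h, 42 members were called in cardiomyocytes (34.4% of those tested, background 12.4%), 32 lower (26.2%, background 6.39%) and 10 higher (8.2%, background 6.01%). The median log2 fold change was -0.30, against 0.00 for all transcripts tested. ENSRNOT00000002695 had 3.71, 3.47, 3.85, 5.91 and 4.43 CPM in vehicle and 0.301, 0.393, 0, 0.301 and 0.101 CPM at the high dose. It was low at the high dose in renal cells too, with 0.134 ± 0.0982 CPM against 1.41 ± 0.169 CPM in vehicle (n = 5 each). ENSRNOT00000007412 rose from 1.25 ± 0.242 to 3.72 ± 1.51 CPM (n = 5 each).

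The 3 high-dose comparisons, hepatocytes at 9 h and the other cell types at 24 h, share no library and differ in dose and, for hepatocytes, in time. Hepatocyte vehicle at 9 h entered the rule, which asked for a high level there. This can favour calls of lower, so overlaps with the hepatocyte list are not independent of the choice of members. Of the members tested in both renal cells and cardiomyocytes at 24 h, 44 fell in renal cells, 25 in cardiomyocytes and 19 in both, which is 43.2% of the first and 76.0% of the second list. Over all 16116 transcripts tested in both, 17.5% and 46.6% were shared. Between renal cells at 24 h and hepatocytes at 9 h, 20 members fell in both, 41.7% of the renal and 64.5% of the hepatocyte list, against 19.0% and 21.5% over all transcripts. Between cardiomyocytes at 24 h and hepatocytes at 9 h, 9 members fell in both, of 32 in the cardiomyocyte (28.1%) and 36 in the hepatocyte list, against 17.7% and 7.81% over all transcripts. In all 3 comparisons 6 members were lower (5.77% of those tested in all 3), against 0.3% of 14346 transcripts. They were ENSRNOT00000005664, ENSRNOT00000006408, ENSRNOT00000036978, ENSRNOT00000074586, ENSRNOT00000082141 and ENSRNOT00000088205, named after their values were seen. The place of ENSRNOT00000006408 and ENSRNOT00000036978 on the list rests on leaving out MS-183.

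**Figure D5:**
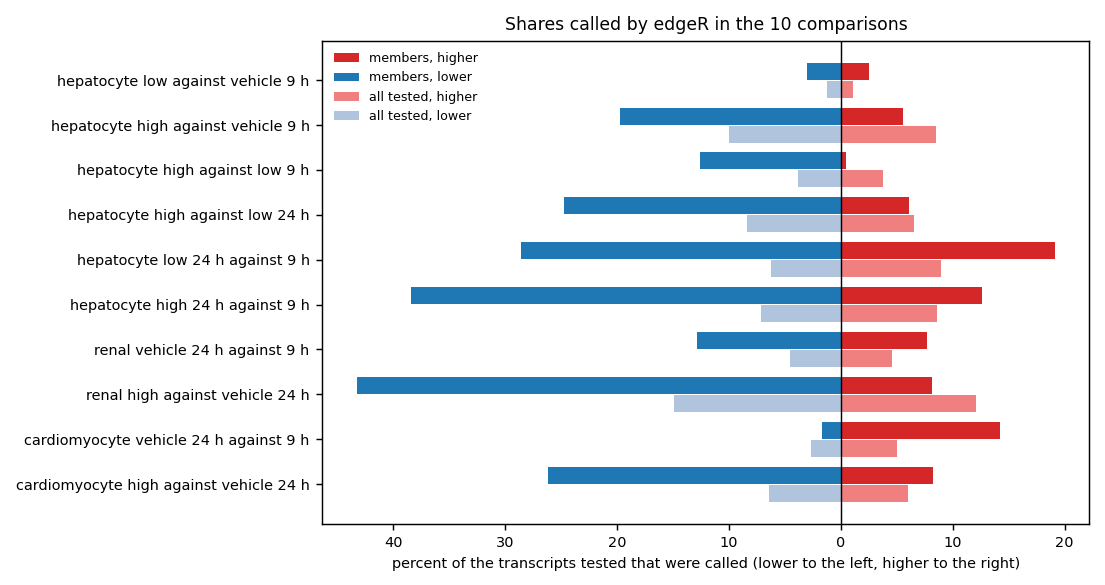
Share of the transcripts tested that edgeR called higher (right, red) or lower (left, blue) in each of the 10 comparisons, with dark bars for the members and pale bars for all transcripts tested. The bars of the members that were lower reach 43.2% in renal cells and 26.2% in cardiomyocytes at the high dose for 24 h and 38.4% in hepatocytes between 9 and 24 h at the high dose, against 14.9%, 6.39% and 7.11% of all transcripts.

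The summed level of the members at the high dose was below that of vehicle in both other cell types. In renal cells it was 14338 ± 484.8 CPM in vehicle, 13271 ± 1588 CPM at the low dose and 8859 ± 476.0 CPM at the high dose at 24 h (n = 5 each). In cardiomyocytes it was 7501 ± 135.7, 6500 ± 1081 and 5607 ± 185.9 CPM (n = 5 each). The low-dose means include 1 library in each cell type that lay far below the other 4, at 10508 CPM in renal cells and 4583 CPM in cardiomyocytes. These libraries, MS-145 and MS-172, also had the lowest transcript totals of their groups, at 14178701 and 10519414 counts. The next lowest were at 29413606 and 18276284 counts. A single member, ENSRNOT00000024030, which went from 6237 to 3340 CPM, held a large part of the renal difference. At 9 h the sums in vehicle, low and high dose were 11387 ± 75.2, 11514 ± 237.2 and 9911 ± 132.9 CPM in renal cells and 6271 ± 88.9, 5480 ± 849.1 and 5034 ± 331.3 CPM in cardiomyocytes (n = 5 each). The renal low-dose and vehicle libraries overlapped, and the cardiomyocyte low-dose mean includes 1 library at 3993 CPM. That library, MS-158, had 16235601 transcript counts, where the others of its group had 37773747 or more.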

How the data were processed

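RNA of 90 libraries was quantified by the authors against the rat genome annotation Rnor_6.0 with kallisto 0.42.4, and each deposited table gives 65166 targets, 40071 transcripts and 25095 genomic intervals. The deposited estimated counts divide reads among similar transcripts, so they need not be whole, and the deposited TPM values scale them by effective length to a fixed sum. The study tested with Sleuth, which was not used here. CPM were computed from the estimated counts of transcripts. Members and lists were chosen with earlier results of these data known. Estimated counts were rounded and tested with edgeR 4.0.16 in R 4.3.3 (quasi-likelihood test, TMM scaling, filterByExpr), 1 fit per comparison of 2 groups, with Benjamini-Hochberg adjustment over all transcripts tested. A transcript was called at an adjusted p of at most 0.05 if it also changed by 0.41 or more in natural log. The code was tested on simulated data. Alternatives used DESeq2 1.42.0, limma 3.58.1 on log2(CPM + 0.5), other scaling, no filter, 1 fit per cell type, TPM and each library left out. Depth was 10519414 to 55822031 transcript counts per library but MS-183, and the intervals and floors cover counting error only.

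Transcripts were named by rule, apart from those said in the text to be chosen after their values were seen: the 8 lowest rule values, the 6 other most abundant members, the called member with the largest rise and fall without overlap in each of 10 comparisons, those next to the limit, and the 2 highest in renal and in cardiomyocyte vehicle at 9 h. Gene symbols, gene lists and cell markers could not be matched to the identifiers (0 of 199 members) and were not scored.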

Additional observations from a re-analysis of the deposited data

Results flagged for a closer look

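Libraries stood apart from the others of their group in 9 of the groups of values checked (8.82%), where chance alone picks about 1 in 20. The summed member level was low in 1 renal library at the high dose for 9 h (MS-131, 9677 CPM), 1 at the low dose for 24 h (MS-145, 10508 CPM), and in 1 cardiomyocyte library at the low dose for 9 h (MS-158, 3993 CPM) and 1 for 24 h (MS-172, 4583 CPM). Each of these libraries had the lowest transcript total of its group, and the part of depth was not tested. In hepatocyte vehicle at 24 h, MS-181 was high for ENSRNOT00000019346 (14.5 CPM) and low for ENSRNOT00000071525 (0.348 CPM). In vehicle at 9 h, MS-93 was high for ENSRNOT00000018776 (335.0 CPM) and ENSRNOT00000064091 (1927 CPM). ENSRNOT00000076920 was at 49.7 CPM in MS-120, at the high dose for 24 h.

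The shallow library MS-183, used in no comparison, held 55 members with at least 3 counts above the highest of the other 4 vehicle libraries at 24 h. The members were chosen for low levels in these 4, and 3 counts are a high CPM value in so shallow a library. The choice of members and this floor therefore set much of the count. Its share over all transcripts was not computed. Of the transcripts described with their values by the naming rule or among those low in vehicle at 24 h alone, 12 were among these 55 members. ENSRNOT00000006408, at 345 CPM, was higher than all 12. The 12 were ENSRNOT00000041590 at 15.03 CPM, ENSRNOT00000010923 and ENSRNOT00000024030 at 56.2 CPM each, ENSRNOT00000032280 at 136.4 CPM and ENSRNOT00000005674 at 176.5 CPM. ENSRNOT00000024775 was at 112.3 CPM, ENSRNOT00000075494 at 20.1 CPM, ENSRNOT00000050180 at 64.2 CPM and ENSRNOT00000075610 at 72.2 CPM. ENSRNOT00000020265 and ENSRNOT00000036978 were at 52.1 CPM each, and ENSRNOT00000076430 at 14.5 CPM.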

How the results depend on the processing

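By adjusted p alone, without the fold threshold, 17.5% to 53.2% of all transcripts passed in the 10 comparisons. The share of tested members called rose in each. In hepatocytes it was 33.8% (low against vehicle, 9 h), 71.7% (high against vehicle, 9 h) and 56.1% (high against low, at 9 h and again at 24 h). Between 9 and 24 h it was 75.4% at the low and 71.2% at the high dose. In renal cells it was 53.8% (vehicle over time) and 73.0% (high dose). In cardiomyocytes it was 40.0% (vehicle over time) and 53.3% (high dose). With 1 fit for all hepatocyte groups, 2.51% were called between low dose and vehicle at 9 h (5 members, or 10 without MS-183, an alternative chosen after seeing the data). Over all transcripts the count was 387 with separate fits, also dropped with 1 fit, and was 397 with 1 fit without MS-183. Without the filter on low counts, 20.1% were called in renal vehicle over time, 39 of more members tested, 33 of them lower, while the count over all transcripts went from 1607 to 1647. The cause was not tested. With only whole-count transcripts the list kept 32.7% of the members, which are all those that have whole counts. Of the members, 86.9% stayed on it with a pseudocount of 0.5, 76.9% with TPM and 77.4% with MS-183 kept. With MS-183 kept, the rule value turned positive for 15 members, among them the highest, 2.66 for ENSRNOT00000005674, and ENSRNOT00000006408 at 2.01. It reversed to 1.19 for ENSRNOT00000010923, 0.83 for ENSRNOT00000032280, 0.67 for ENSRNOT00000075494 and 0.61 for ENSRNOT00000036978. Leaving out each library gave shares called of 4.52% to 7.58%, 24.6% to 28.6%, 11.1% to 14.6%, 28.6% to 30.3%, 46.7% to 48.7% and 48.0% to 50.5% in the 6 hepatocyte comparisons in the order of the text, 16.0% to 20.8% and 48.3% to 53.8% in renal cells, and 15.6% to 19.2% and 33.6% to 37.9% in cardiomyocytes, and kept 94.97% to 99.5% of the members. No paired analysis was possible because the groups share no replicate number.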
